A study of Homo sapiens with 4 samples.

Results

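The genes described here encode the mitochondrial respiratory chain and ATP synthase, together with a few relatives that carry the same symbols. They were chosen by symbol alone: every row of the count table that starts with MT- or with NDUFA, NDUFB, NDUFC, NDUFS, NDUFV, UQCR, SDHA, SDHB, SDHC, SDHD, COX4, COX5, COX6, COX7, COX8 or ATP5. This gave 111 of 19238 genes, of which 13 are encoded in the mitochondrial genome and 98 in the nucleus. Of the nuclear members, 75 are structural subunits, 37 of complex I, 4 of complex II, 8 of complex III, 11 of complex IV and 15 of complex V. The other 23 are 7 assembly factors of complex I, 2 of complex II, 6 tissue isoforms or paralogues of complex IV, 3 further ATP5 genes, and 5 readthrough, antisense or pseudogene entries that the symbol rule also takes in.

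The respiratory chain passes electrons from NADH and succinate to oxygen through complexes I to IV in the inner mitochondrial membrane, pumps protons as it does so, and complex V (ATP synthase) uses the proton gradient to make ATP. Complexes I, III, IV and V are built from subunits of both genomes, so their assembly needs proteins made in the cytosol and in the mitochondrion, while complex II is nuclear-encoded throughout. The mitochondrial genes are transcribed from both strands of a small circular genome as long RNAs that are then cut into single messengers, whereas each nuclear subunit has its own promoter. In melanoma, oxidative phosphorylation is known to vary with the melanocytic programme led by MITF.

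The cells came from WM239A, a human melanoma line labelled as poorly metastatic, and from 3 of its subclones, 113/6-4L (high lung metastasis potential), 131/4-5B1 and 131/4-5B2 (both with high brain metastasis potential). Each line was 1 library, with no treatment named in the labels, prepared with a droplet-based 3′ kit that counts captured RNA molecules by unique molecular identifiers (UMIs). Each cell name ends in 1 of 4 suffixes that no label links to a line, so the cells are described as barcode sets 1 to 4, each an unlabelled sample. No comparison between lines was made, no test was run and no p-value was computed. Where 4 values follow each other, they belong to sets 1, 2, 3 and 4 in turn.

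There were 2121, 1779, 2140 and 2133 cells, with 71182648 to 71915542 UMIs in all per set. The median cell had 33556, 41131, 33152.5 and 33390 UMIs, so set 2 was the deepest per cell. The highest mitochondrial share of any cell was 19.8%, 19.9%, 19.6% and 19.8%, and genes per cell ran from 3001 to 6999. These ends lay close together in all sets. Whether cells were cut at such limits before deposit was not tested. Spreads of the mitochondrial share therefore hold only for the cells left in the table. Of 8134 distinct barcodes, 39 occurred in 2 or more sets. Among melanocytic markers 7 of 8 were measured, from PMEL at 2201, 2766, 4883 and 4496 CPM (UMIs scaled to a total of 1000000 per set) to SOX10 at 70.4, 58.2, 61.5 and 65.4 CPM. Of 14 markers of endothelial, fibroblast, immune, epithelial and neural cells, 8 were in the table and none reached 10 CPM. The highest was EPCAM at 1.17 CPM, and the 8 summed to 2.09, 2.32, 1.05 and 0.997 CPM.

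Counts were summed over the cells of a set and divided by its total. A gene counts as measured here where any set reached 10 CPM. This held for 7421 genes, among them 99 of the 111 members, 12 of the 13 mitochondrial genes (all but MT-ATP8) and 87 of the 98 nuclear ones. Intervals in parentheses are exact 95% intervals that cover counting error only. For measured members with a mean of at least 100 CPM, the upper side of the interval on a set's level was at most 2.52% of the level. For all measured members it was at most 7.04%. Between-library variation is not in these intervals, and with 1 library per line it cannot be told apart from a difference between lines. Because the kit counts molecules at their 3′ ends, levels are compared between sets for the same gene and are not read as amounts of protein or as subunit ratios.

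The mitochondrial genes were lower in set 1 than in the other sets, and the nuclear genes were highest in set 2. Summed over the 13 mitochondrial genes, the level was 55504, 69658, 71973 and 69521 CPM. Sets 2 to 4 lay close to each other and set 1 lay apart below them. Set 3 was 1.297-fold (1.295 to 1.298) above set 1. Summed over all nuclear members, the level was 41387, 46364, 42154 and 42344 CPM, so set 2 stood above sets 1, 3 and 4. With TMM scaling, which sets the bulk of genes equal between sets, it was 39763, 46749.7, 42905 and 42945 CPM, and set 1 then also lay below sets 3 and 4. By plain totals, without TMM scaling, set 2 was 1.12-fold (1.119 to 1.122) above set 1. The mitochondrial to nuclear ratio was 1.34, 1.502, 1.71 and 1.64, and was 1.27-fold higher in set 3 than in set 1.

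Split by complex, the same ratio did not vary equally. The nuclear part of each ratio holds only the structural subunits that the symbol rule takes in. For complex V, which has only MT-ATP6 and MT-ATP8 from the mitochondrial genome, it was 0.222, 0.293, 0.310 and 0.287, a span of 1.40-fold. For complex III, with MT-CYB as its only mitochondrial subunit, it was 0.987, 1.07, 1.28 and 1.251. The ratio of complex IV, whose catalytic core is encoded by MT-CO1, MT-CO2 and MT-CO3, was 3.001, 3.43, 3.82 and 3.72. In all 3 of these complexes set 1 was lowest and set 3 highest. Complex I, with 7 mitochondrial subunits, had ratios of 1.354, 1.350, 1.499 and 1.449, so that sets 1 and 2 differed little and the span was 1.11-fold.

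The mitochondrial genes themselves fell into those that were clearly lower in set 1 and those that were not. MT-CYB, the cytochrome b of complex III, had 4982, 6591, 7118 and 6856 CPM. MT-ATP6, the proton channel subunit of ATP synthase, had 2843, 4184, 3893 and 3679 CPM. The complex IV subunit MT-CO1 had 8881, 11353, 12593 and 11874 CPM. In each of these 3 genes set 1 was well below sets 2, 3 and 4, which varied less among themselves. MT-CO2 had 16671, 23231, 22340 and 21563 CPM and showed the same order of set 1 against the rest. MT-CO3 had 7738, 8520, 10030 and 10007 CPM, so that set 2 lay between set 1 and sets 3 and 4. MT-ND3, a small membrane subunit of complex I, had 850.3, 1254, 1221 and 1198 CPM, again lowest in set 1.

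Other complex I genes of the mitochondrial genome did not share this. MT-ND1 had 3154, 2903, 3083 and 3093 CPM. MT-ND2 had 3389, 3349, 3255 and 3222 CPM, and MT-ND5 had 463, 472, 465 and 447 CPM. The widest of these 3 was MT-ND1 with a span of 1.09-fold, and in none of them was set 1 the lowest. MT-ND4, the most counted of the complex I group, had 6328, 7584, 7814 and 7401 CPM and was lower in set 1. MT-ND4L had 93.0, 137, 91.75 and 101 CPM and was highest in set 2. MT-ND6, the single protein-coding gene of the other strand, had 106, 71.5, 62.9 and 72.4 CPM and was highest in set 1, 1.69-fold (1.63 to 1.75) above set 3.

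**Figure D1:**
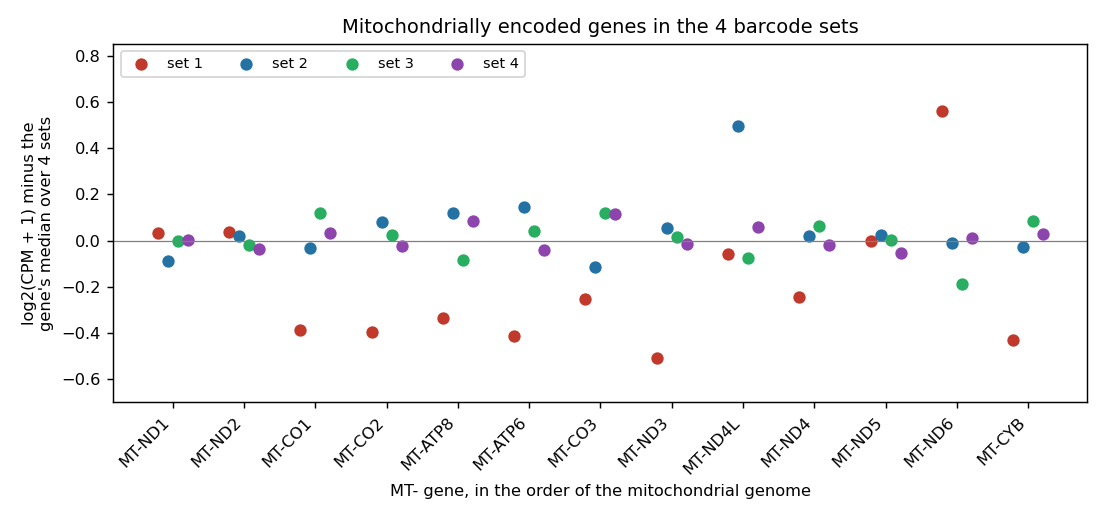
Level of each mitochondrial gene in the 4 barcode sets, as the log2(CPM + 1) deviation from that gene's median (y axis), with genes in their order along the mitochondrial genome (x axis) and 1 point per set. Set 1 lies below the other sets for MT-CO1, MT-CO2, MT-ATP6, MT-CO3, MT-ND3, MT-ND4 and MT-CYB, near them for MT-ND1, MT-ND2 and MT-ND5, and above them for MT-ND6.

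On the log2(CPM + 1) scale, which hardly alters ratios at these levels, 8 of the 12 measured mitochondrial genes (66.7%) spanned at least 25% over the 4 sets, that is, their highest set was at least 25% above their lowest, against 52.1% of all measured genes. No member of either genome spanned 2-fold, against 5.85% of all measured genes. Every other set was at least 25% above set 1 for MT-ATP6, MT-CO1, MT-CO2, MT-CYB and MT-ND3, 5 of 12, and for 6.09% of all measured genes. Of the mitochondrial genes, MT-ND6 alone was at least 25% higher in set 1 than in every other set, against 10.8% of all measured genes. Among sets 2 to 4 only MT-ND4L of the 12 spanned 25%, against 22.3% of all measured genes. No member was 25% apart between sets 3 and 4, where 1.74% of all measured genes were. Nor was any member set apart by 25% from every other set through a low value in set 2 (2.05% of all measured genes), a high or low value in set 3 (0.445% and 0.391%) or a high or low value in set 4 (0.0404% and 0.108%). The mitochondrial genes share long primary transcripts, so the 12 are not separate measurements.

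Some mitochondrial messengers overlap each other, which bears on how single genes can be read. MT-ATP8 and MT-ATP6 sit on 1 shared messenger, as do MT-ND4L and MT-ND4, and MT-ATP6 abuts MT-CO3. The 3 junctions are shown because the kit reads the 3′ end of a messenger, which for a shared messenger lies in the downstream gene. They are given 5′ to 3′ on the plus strand from GENCODE transcripts of GRCh38, with the bases that belong to both genes in capitals.
MT-ATP8 and MT-ATP6, chrM:8517-8582: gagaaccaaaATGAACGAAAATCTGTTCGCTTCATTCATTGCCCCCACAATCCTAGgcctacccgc
MT-ND4L and MT-ND4, chrM:10740-10786: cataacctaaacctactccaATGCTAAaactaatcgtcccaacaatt
MT-ATP6 and MT-CO3, chrM:9187-9227: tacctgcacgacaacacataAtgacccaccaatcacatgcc
The first overlap is 46 bases long (chrM:8527-8572), begins with the start codon of MT-ATP6 and ends with the stop codon of MT-ATP8. The second is 7 bases long (chrM:10760-10766) and the last is a single base. The sources used here do not say how reads in an overlap were assigned.

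Both upstream genes of a shared messenger had low counts. MT-ATP8 had 5.68, 8.13, 6.93 and 7.94 CPM, which is 0.200%, 0.194%, 0.178% and 0.216% of the MT-ATP6 count. MT-ND4L had 1.47%, 1.80%, 1.17% and 1.36% of the MT-ND4 count. MT-ATP6, which has an end of its own before MT-CO3, had 36.7%, 49.1%, 38.8% and 36.8% of the MT-CO3 count. MT-ND6 lies on the minus strand opposite a stretch between MT-ND5 and MT-CYB, and 35.6% of its bases are G, against 6.28% to 16.2% in the other 12 genes. The sources used here do not say whether the counting used strand, and whether its counts hold reads of the opposite strand was not tested.

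Within the mitochondrial total, set 1 therefore had another composition. The share of MT-ND6 among mitochondrial UMIs was 1.87-fold the median of the other sets in set 1. The shares of MT-ND1, MT-ND2 and MT-ND5 were 1.33-fold, 1.32-fold and 1.29-fold. MT-ND4 had 1.05-fold the share, and MT-CO3 differed least from the other sets. The shares of MT-CO1 (0.937-fold), MT-CYB (0.910-fold) and MT-ND3 (0.889-fold) were smaller.

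Composition also differed with the mitochondrial share within every set. Cells of a set, each thinned to 10000 UMIs, were parted into 4 groups of equal size by their mitochondrial share of UMIs. From the lowest to the highest group, the share of MT-ND1 within the mitochondrial UMIs was 0.702-fold to 0.771-fold over the 4 sets and that of MT-ND2 0.748-fold to 0.890-fold. MT-CO2 went the other way at 1.14-fold to 1.248-fold. MT-ND4 stayed at 1.002-fold to 1.03-fold. Set 1 had the lowest mitochondrial share per cell, so its composition was also compared in cells with 5% to 7% mitochondrial UMIs, which left 928, 825, 894 and 1051 cells. In these the set 1 share was still 1.61-fold for MT-ND6, 1.254-fold for MT-ND2, 1.20-fold for MT-ND1 and 1.18-fold for MT-ND5, and 0.883-fold for MT-CYB and 0.872-fold for MT-ND3. In these matched cells the first 4 genes lay closer to the other sets than in all cells, and the last 2 slightly farther from them.

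The nuclear subunits differed less than the mitochondrial genes, and most of them were highest in set 2. Over the 75 subunits, the median log2 deviation from a gene's median over the sets was -0.005, 0.08, -0.008 and -0.007, and 39 subunits were highest in set 2. Set 2 was highest for 40 of the 87 measured nuclear members (46.0%), against 19.2% of all measured genes. Set 1 was lowest for 33 of 87 (37.9%), against 27.9%, and with TMM scaling for 48 of 87 (55.2%), against 37.3%. Of the nuclear members, 40 of 87 (46.0%) spanned 25% over the sets, a share below the 52.1% of all measured genes. Among genes with a mean of at least 100 CPM the share was 46.4%, and 33 of 72 nuclear members of that level (45.8%) spanned 25%. At that level 3.35% of all genes and no nuclear member spanned 2-fold. By complex, 18 of 37 subunits of complex I, 1 of 4 of complex II, 5 of 8 of complex III, 4 of 11 of complex IV and 4 of 15 of complex V spanned 25%. Among sets 2 to 4 alone, 12 of the 87 (13.8%) did, against 22.3% of all measured genes.

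**Figure D2:**
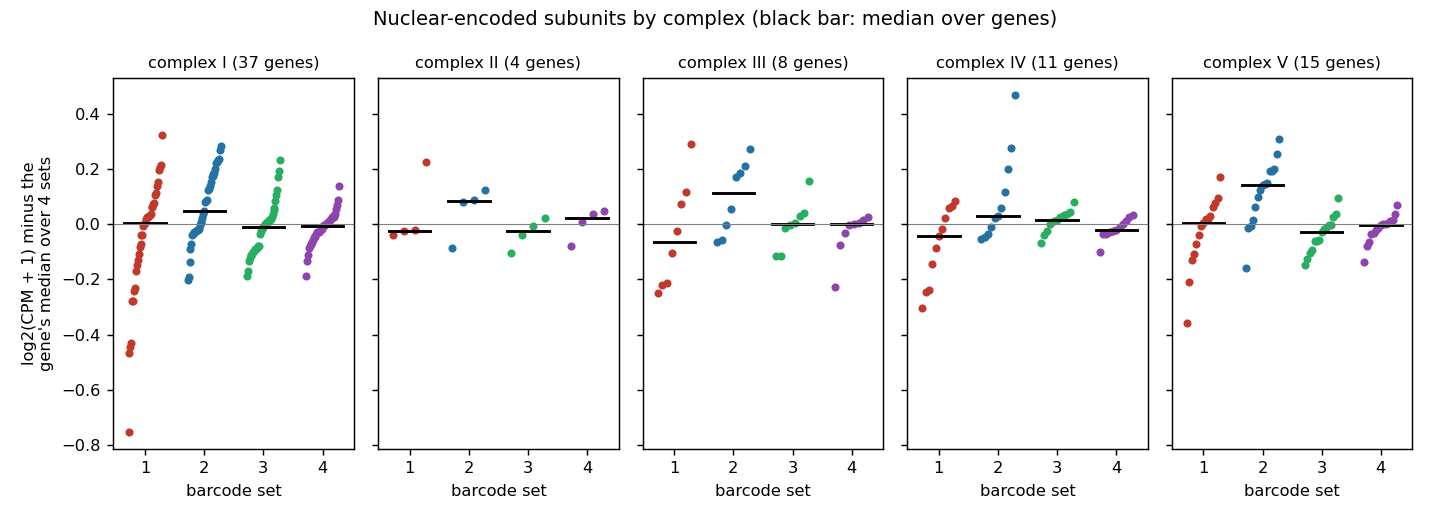
Nuclear-encoded structural subunits of each complex, as the log2(CPM + 1) deviation from each gene's own median (y axis) by barcode set (x axis), with 1 point per gene and a black bar at the median over genes. The points of set 1 spread widest, with NDUFA3 lowest, and the median of every complex is highest in set 2, from 0.03 for complex IV to 0.14 for complex V.

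Complex I, which takes electrons from NADH, has 7 nuclear core subunits beside its 7 mitochondrial ones. Their summed level was 1215, 1347, 1343 and 1376 CPM. NDUFV1, which binds NADH and flavin, had 103, 102, 106 and 104 CPM, a span of 1.04-fold. NDUFV2 had 360.2, 360.4, 329.9 and 358 CPM and NDUFS1, which carries iron-sulfur clusters, 45.9, 44.7, 39.5 and 39.996 CPM. NDUFS3 had 199, 233, 203 and 207 CPM and NDUFS8 240.2, 267, 274 and 281 CPM. These 5 core subunits differed by at most 1.17-fold between sets. NDUFS7, which holds the last cluster before ubiquinone, had 139, 172, 213 and 208 CPM. Set 1 was lowest, and set 3 was 1.53-fold (1.495 to 1.573) above it.

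The 30 accessory subunits of complex I summed to 9405, 10335, 9323 and 9346 CPM, with set 2 above the rest. NDUFA3 had the widest span of all nuclear subunits, at 90.7, 151, 163 and 156 CPM. Set 3 was 1.80-fold (1.74 to 1.85) above set 1, and sets 2 to 4 lay close together. NDUFS4, an accessory subunit of the matrix arm, had 130, 180, 178 and 181 CPM, again with only set 1 apart. NDUFC1, at 259.8, 372, 308 and 323 CPM, was lowest in set 1 and highest in set 2. NDUFB2 and NDUFS5, the accessory subunits with the highest counts, had 1021, 1142, 899 and 925 CPM and 584, 801, 695 and 678 CPM, both highest in set 2. NDUFB5 went the other way, with 316, 268, 237 and 230.2 CPM, highest in set 1. NDUFC1, NDUFS4 and NDUFB5 were picked for contrast after their values were seen.

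Complex II, the succinate dehydrogenase shared with the citric acid cycle, varied least in its total, at 683, 721, 662 and 681 CPM. The flavin subunit SDHA had 41.5, 39.6, 42.9 and 43.6 CPM and the iron-sulfur subunit SDHB 248, 278, 248 and 262 CPM. Of the membrane anchors, SDHC had 268, 290.4, 272 and 274 CPM and SDHD 125, 113, 99.7 and 101 CPM. SDHD was the single complex II gene that spanned 25% and was highest in set 1.

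Complex III passes electrons from ubiquinol to cytochrome c. Its 8 nuclear subunits within the symbol rule summed to 5046, 6161, 5552 and 5481 CPM. The difference lay in small subunits. UQCRH, the hinge protein, had 1811, 2424, 2159 and 2150 CPM and UQCRQ 877, 1227, 1007 and 1026 CPM, both lowest in set 1 and highest in set 2. UQCRB, with 306, 327, 260.1 and 241 CPM, was higher in sets 1 and 2 than in sets 3 and 4. The Rieske iron-sulfur protein UQCRFS1 (368, 410.5, 394 and 396 CPM) and the core protein UQCRC1 (232, 226, 244 and 241 CPM) spanned 1.12-fold and 1.08-fold. The other core protein, UQCRC2, had 215, 169, 179 and 171 CPM and was highest in set 1. CYC1, a nuclear subunit outside the symbol rule and not in the sum, had 445, 352, 403 and 399 CPM. It was highest in set 1 and lowest in set 2.

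Complex IV, cytochrome c oxidase, summed to 11093, 12561, 11763 and 11669 CPM over its 11 nuclear subunits. COX4I1, the largest nuclear subunit, had 1631, 1721, 1763 and 1746 CPM, and COX5A 641, 758, 648 and 672 CPM. COX7B had 288, 403, 295 and 285 CPM. Set 2 was 1.42-fold (1.39 to 1.44) above set 4, and COX7B was the only nuclear member at least 25% higher in set 2 than in every other set, against 1.91% of all measured genes. COX6B1, which faces the intermembrane space, had 712, 859, 930 and 901 CPM and was lowest in set 1. NDUFA4, now counted among the subunits of this complex, had 2156, 2571, 2028 and 2094 CPM, highest in set 2.

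The tissue isoforms of complex IV were nearly absent beside their common forms. NDUFA4L2, an isoform known to be induced in low oxygen, had 0.73, 0.43, 0.84 and 0.42 CPM. COX6A2, the muscle form, had 1, 8, 36 and 35 UMIs, while COX6A1 had 474, 433, 461 and 416 CPM. COX7B2, a testis form, had 13, 1, 1 and 0 UMIs. COX6B2 and COX8C had at most 5 UMIs in any set. COX7A2L, a paralogue involved in joining complexes into supercomplexes, was the exception, with 405, 327, 325 and 320.3 CPM and its highest level in set 1. COX7A2 had 1200, 1175, 1119 and 1127 CPM. No gene of the count table carried the symbol COX4I2 or COX7A1.

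In complex V, the ATP synthase, the 15 nuclear subunits summed to 12851, 14287, 12589 and 12856 CPM. Of the 15, 11 were highest in set 2, against 19.2% of all measured genes. The alpha and beta subunits of the catalytic head were not among the 11. ATP5A1, the alpha subunit, had 397, 374, 445 and 438 CPM, and ATP5B, the beta subunit, 762, 685, 652 and 671 CPM. Set 2 was thus lowest for ATP5A1, and set 1 highest for ATP5B. ATP5A1 lies on chromosome 18, whose other measured genes were also low in set 2, with a median log2 deviation of -0.197. ATP5G1, ATP5G2 and ATP5G3 encode the same mature c-ring protein from separate genes. ATP5G1 had 703, 793, 644 and 684 CPM and ATP5G3 2026, 2335, 1948 and 2040 CPM, both highest in set 2. ATP5G2 had 1293, 1283, 1314 and 1287 CPM, a span of 1.02-fold and the narrowest of all measured members. ATP5D, the delta subunit of the central stalk, had 415, 528, 546 and 538 CPM and was lowest in set 1. ATP5J, in the peripheral stalk, had 924, 1046, 802 and 830 CPM, and ATP5E, the epsilon subunit, was also highest in set 2 at 1712, 1809, 1478 and 1567 CPM.

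The nuclear members that are not structural subunits summed to 1092, 952, 922 and 936 CPM, highest in set 1. Most of this excess came from NDUFAF3 and COX7A2L. Of the 12 measured, 6 were highest in set 1, against 44.9% of all measured genes. The complex I assembly factors among them summed to 519, 461, 426 and 442 CPM, while those of complex II (76.0, 74.2, 79.2 and 82.5 CPM) and the further ATP5 genes (64.9, 66.0, 70.8 and 71.5 CPM) were highest in set 4. NDUFAF3 had 256, 199, 197 and 201 CPM and NDUFAF6 49.4, 38.6, 38.7 and 38.5 CPM. NDUFAF3 and NDUFAF6 were the only nuclear members at least 25% higher in set 1 than in every other set. NDUFAF4, with the widest span of the measured members in this group, had 91.3, 88.6, 65.5 and 71.5 CPM. Every other set was at least 25% above set 1 for 4 nuclear members, ATP5D, NDUFA3 and NDUFS4 among them. These are 2 and 4 of 87, beside 10.8% and 6.09% of all measured genes. With TMM scaling in place of totals this split of 2 higher and 4 lower became 0 higher and 9 lower. Besides MT-ATP8 and the complex IV isoforms, the members under 10 CPM in every set were NDUFAF1 at 9.16, 7.83, 7.35 and 7.87 CPM, ATP5L2 at 3.66, 4.02, 3.58 and 3.05 CPM, the pseudogene ATP5EP2, the antisense gene NDUFB2-AS1 and the readthrough entries ATP5J2-PTCD1 and NDUFC2-KCTD14. Counts of the last 4, and of the measured pseudogene COX6A1P2 (17.8, 16.6, 14.2 and 13.4 CPM), are uncertain because reads can be split between near-identical or overlapping genes.

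Nuclear members followed the chromosome they lie on in set 1. Chromosomes were taken by symbol from GENCODE 29, and for each chromosome the median log2 deviation in set 1 was computed over its other measured genes. It was below -0.05 on chromosomes 1, 5, 10, 13 and 19 and above 0.05 on 15 others. Of 27 members on the first 5 chromosomes, 24 lay below their own median in set 1 and 20 were lowest there, with a median of -0.21. Of the 1859 other measured genes on these chromosomes, 74.6% lay below their median and 58.4% were lowest in set 1, with a median of -0.12. Of 48 members on the other 15, 10 lay below their median and 6 were lowest in set 1, with a median of 0.06. Of the 4500 other measured genes there, 25.2% lay below and 13.1% were lowest in set 1, with a median of 0.13. The correlation of a member's deviation in set 1 with that of its chromosome was 0.64 (Pearson) and 0.67 (Spearman) over 87 members, a description across genes that share chromosomes.

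Chromosome 19 carried 12 measured members, more than any other, among them NDUFA3, NDUFS7, NDUFA13, NDUFB7, COX6B1, UQCR11 and ATP5D. Their median in set 1 was -0.24 and 10 of 12 were lowest in set 1, against 53.3% of the other chromosome 19 genes. The other genes of chromosome 19 had a median of -0.13 in set 1. On chromosome 8 the other genes had a median of 0.32, and its 4 members, UQCRB and NDUFAF6 among them, one of 0.13. When each gene was centred on its chromosome's median in every set, a step chosen after seeing the data, 24 nuclear members (27.6%) spanned 25% in place of 40, and 39.6% of all genes with a chromosome did in place of 51.5%. The span of NDUFS7 went from 0.61 to 0.38 on the log2 scale and that of NDUFA3 from 0.84 to 0.69, while that of COX7B went from 0.50 to 0.63. The span of ATP5A1 went from 0.25 to 0.08 and that of ATP5B from 0.225 to 0.075. The deviation of ATP5A1 in set 2 was 0.03 after centring, in place of -0.16. Copy number was not measured, and its part in these differences was not tested.

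**Figure D3:**
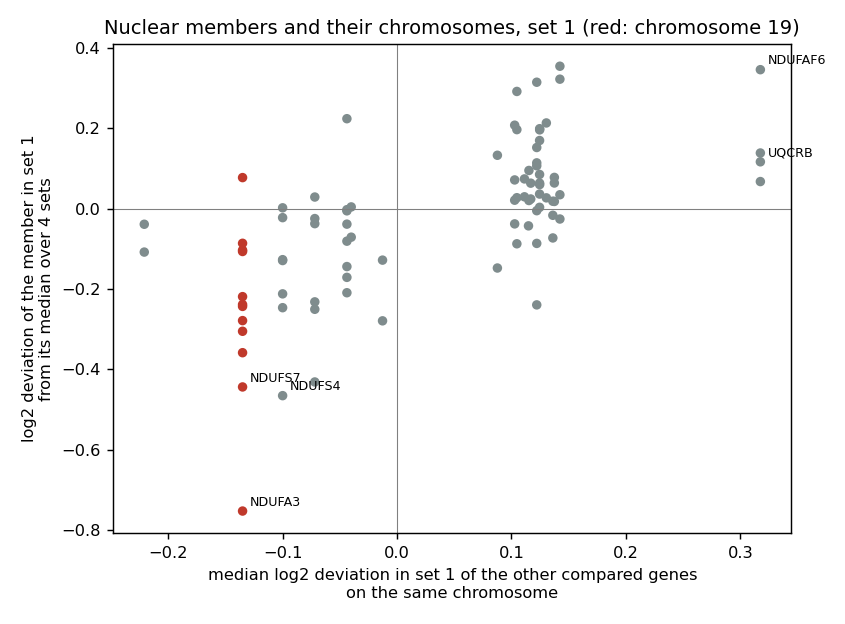
Each measured nuclear member's log2 deviation in set 1 from its median over the 4 sets (y axis) against the median deviation in set 1 of the other measured genes on its chromosome (x axis), with chromosome 19 in red. Members on chromosomes with a median below 0 lie mostly below 0 themselves, with NDUFA3, NDUFS4 and NDUFS7 lowest.

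Promoters were examined because each nuclear subunit is transcribed on its own and NRF1, a regulator of respiratory genes, has a well-known palindromic site. RefSeq promoters of GRCh38.p14, 250 bases before to 50 after the start, were found for 63 of the 75 subunits. Its half-sites GCGCA and GCGC with any 1 base between them, searched on both strands in the 250 bases before the start, occurred in 13 of 63 (20.6%) and in 7.65% of 15843 promoters. The ETS core CCGGAAG occurred in 16 of 63 (25.4%) and in 11.8% of all. The YY1 letters AAGATGGC occurred in 1 of 63 (1.59%) and in 1.39% of all before the start. Over the whole 300 bases they occurred in 11 of 63 (17.5%) and in 3.91% of all. A match is a string of letters and not a bound site.

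One window before the start is shown for each complex that had an NRF1 match there, to show how the match sits in its surroundings. Complex IV had none in these windows. Sequences run 5′ to 3′ on the gene's strand, with the match in capitals.
NDUFB4 (complex I), chr3:120596137-120596226, plus strand: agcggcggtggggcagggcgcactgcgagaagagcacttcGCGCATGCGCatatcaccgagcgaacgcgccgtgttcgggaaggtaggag
SDHD (complex II), chr11:112086723-112086812, plus strand: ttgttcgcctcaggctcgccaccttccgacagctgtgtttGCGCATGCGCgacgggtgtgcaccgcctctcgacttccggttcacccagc
UQCR11 (complex III), chr19:1605463-1605531, minus strand: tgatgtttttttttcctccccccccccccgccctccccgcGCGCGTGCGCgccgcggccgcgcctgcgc
ATP5O (complex V), chr21:33915805-33915868, minus strand: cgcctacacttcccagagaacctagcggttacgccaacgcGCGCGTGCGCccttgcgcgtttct
These 4 genes did not share a pattern over the sets. NDUFB4 had 612, 654, 561 and 584 CPM and ATP5O 693, 782, 676 and 668 CPM, both highest in set 2. SDHD was highest in set 1 and UQCR11, at 533, 619, 692 and 621 CPM, in set 3.

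Between cells of a set, the mitochondrial share varied far more than the nuclear one. In cells thinned to 10000 UMIs (2115, 1778, 2139 and 2132 cells), the median mitochondrial share was 5.41%, 6.73%, 7.12% and 6.85%, and the middle 90% of cells ranged from 3.50% to 9.35% in set 1 and from 5.10% to 11.2% in set 3. The nuclear members' share of the UMIs outside mitochondrial genes had medians of 4.37%, 5.00%, 4.55% and 4.56% and ranged from 3.52% to 5.30% in set 1 and from 4.15% to 5.92% in set 2. After the Poisson part of the variance was removed, the coefficient of variation between cells was 34.6%, 32.7%, 27.3% and 27.7% for the mitochondrial share. For the nuclear members, here taken as a share of all 10000 UMIs, it was 11.4%, 10.2%, 10.9% and 10.7%.

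The shares of both genomes were hardly related between cells. Their Spearman correlation was 0.18, 0.22, 0.14 and 0.07 over the cells of sets 1 to 4. By complex, the mitochondrial parts of complexes I, III, IV and V were tied to each other, with 0.52 to 0.82 over 6 pairs and a median of 0.68. The nuclear parts were tied more loosely, with 0.003 to 0.51 over 10 pairs and a median of 0.30. Mitochondrial and nuclear parts had -0.17 to 0.30 over 20 pairs and a median of 0.02. Within 1 complex, the mitochondrial and nuclear parts of complex I had -0.08, 0.02, -0.06 and -0.11, those of complex III 0.10, 0.09, 0.01 and -0.03, and those of complex V 0.11, 0.09, 0.10 and 0.03. Complex IV stood above these with 0.28, 0.30, 0.22 and 0.20, and its set 2 value was the highest of all mitochondrial to nuclear values. Pairs from different complexes came near it, so such values were not particular to a shared complex. The mitochondrial part of complex IV had 0.28, 0.27, 0.23 and 0.17 with the nuclear part of complex III. The mitochondrial part of complex V had 0.25, 0.26, 0.22 and 0.16 with the nuclear part of complex IV. Cells of 1 set share a library, and sums with few UMIs give lower correlations, so these values are descriptions.

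**Figure D4:**
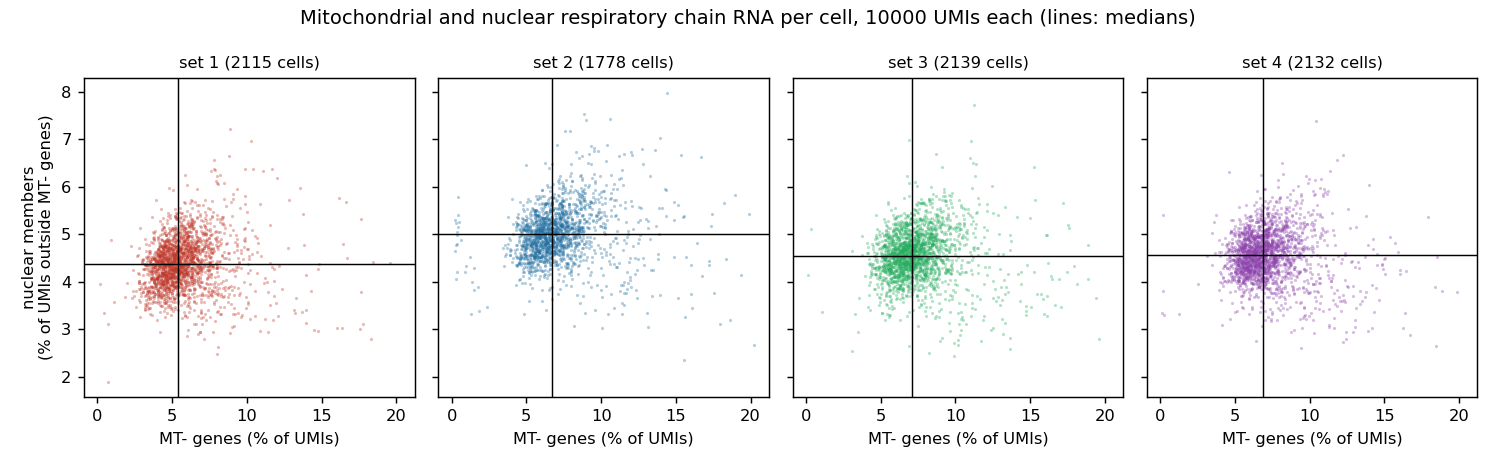
Mitochondrial genes' share of UMIs (x axis, percent) against the nuclear members' share of UMIs outside mitochondrial genes (y axis, percent), 1 point per cell thinned to 10000 UMIs and 1 panel per barcode set, with lines at the medians. The clouds are wide along the mitochondrial axis and narrow along the nuclear axis, and a few cells lie below 2% or above 15% on the mitochondrial axis.

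Single genes differed in how closely they followed the rest. Against the sum of the other mitochondrial genes, MT-ND4 had a Spearman correlation of 0.797 to 0.850 over the sets, MT-CO1 0.766 to 0.824 and MT-ATP6 0.753 to 0.787. MT-ND6 had -0.015 to 0.103 and a far smaller count. Against the other nuclear members, ATP5G3 had 0.338 to 0.504 and NDUFA4 0.403 to 0.441. Both had UMIs in nearly every thinned cell. The weakly counted ATP5SL and SDHAF1 had values slightly below 0, which in counts this sparse is no finding.

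Of 6244 other genes with at least 10 CPM in every set, those most like the mitochondrial share across cells were RPL34 (mean Spearman correlation 0.36 over the sets), RPL39 (0.30), LYST (0.28), NEAT1 (0.28) and C4orf48 (0.27). RPL34 and RPL39 encode ribosomal proteins and NEAT1 is a nuclear non-coding RNA. Those most like the nuclear share were TXN (0.34), POMP (0.32), LDHB (0.29), HINT1 (0.27) and SKP1 (0.27). TXN encodes thioredoxin, POMP a proteasome maturation factor and LDHB a subunit of lactate dehydrogenase. No gene was in both groups of 5, but groups this small out of 6244 genes would seldom share one, so this is no finding. The median over the 6244 genes was 0.06 for the mitochondrial share and 0.001 for the nuclear share. Negative values reached a like size, the lowest being ACTB (-0.30) for the mitochondrial share and RPL29 (-0.26) for the nuclear share.

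The mitochondrial share moved with depth and phase in every set. Its Spearman correlation with a cell's UMI count before thinning was -0.32, -0.31, -0.43 and -0.42, while that of the nuclear share was -0.01, -0.08, -0.08 and -0.04. With the cells of a set in 4 groups of equal size by depth, from the shallowest to the deepest group the median mitochondrial share went from 6.34% to 5.02% in set 1, from 7.93% to 6.28% in set 2, from 8.55% to 6.51% in set 3 and from 7.97% to 6.21% in set 4. The mitochondrial UMIs of the median cell were nevertheless more in the deepest group, 2475 against 1144 in set 1 and 3101 against 1563 in set 3. Set 1 had the lowest share in every depth group. In cells of 30000 to 40000 UMIs the log2 difference of set 3 over set 1 in the summed mitochondrial level was 0.38, against 0.37 over all cells.

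By phase, called from S and G2M gene scores, the median mitochondrial share was 5.55% in G1, 5.47% in S and 5.14% in G2M in set 1. In set 2 the medians were 7.35%, 6.62% and 6.52%, in set 3 7.28%, 7.12% and 6.93%, and in set 4 7.27%, 6.81% and 6.67%. The nuclear share had the same order of phases, with 4.41%, 4.39% and 4.23% in set 1 and 5.11%, 5.02% and 4.84% in set 2. Set 1 had the lowest mitochondrial and set 2 the highest nuclear share in each phase. In G1 alone the order of the mitochondrial medians differed from that over all cells, with set 2 above sets 3 and 4. G1 cells were also the shallowest in every set, with a median of 30693 UMIs against 37190 in S and 35226 in G2M in set 1. Phase was not separated from depth, so the phase medians are not a measure of phase alone.

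**Figure D5:**
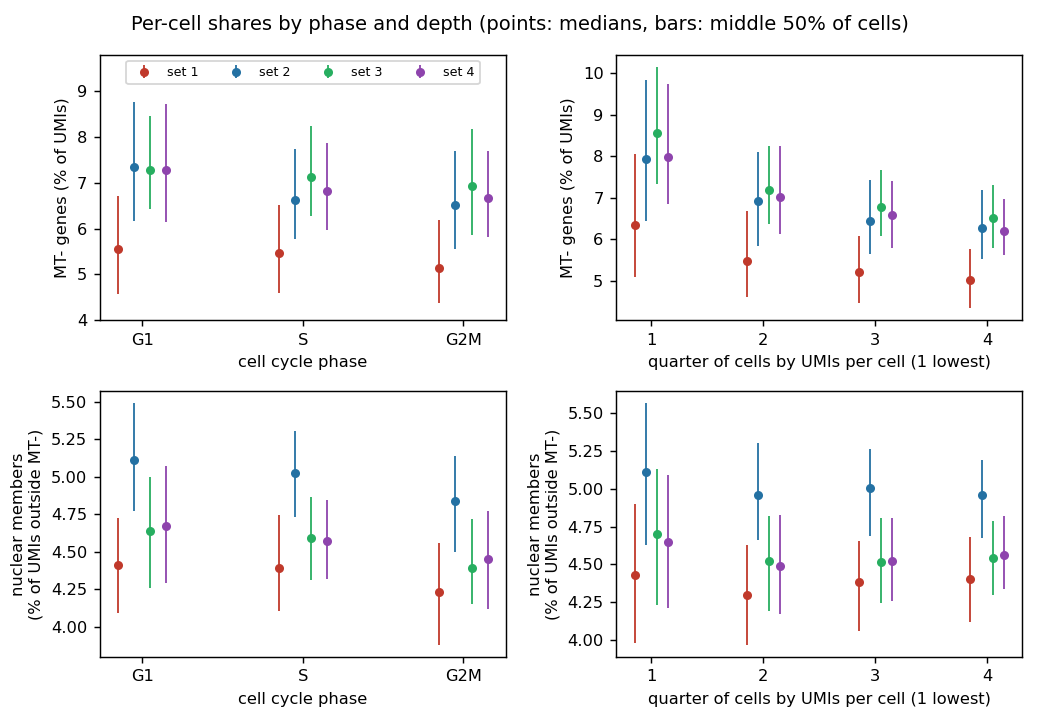
Median share per cell (points) with the middle 50% of cells (bars) for mitochondrial genes (upper panels) and nuclear members (lower panels), in percent of UMIs, by cell cycle phase (left) and by depth group of cells ranked by UMIs (right), for each barcode set. The mitochondrial share is lower in deeper cells and is lowest in set 1 throughout, and the nuclear share is highest in set 2 throughout.

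A few cells lay at the ends of the mitochondrial range. Under 2% mitochondrial UMIs were 41 cells (8, 24, 3 and 6), with a median of 13712 UMIs and a median nuclear share of 4.16%. Above 15% were 86 cells (16, 24, 29 and 17), with 19125.5 UMIs and 4.07%. Both kinds of cells were shallower than the sets' medians, and their pooled nuclear shares lay below the medians of all 4 sets. Cells above the highest shares given earlier, if any were removed, are not in these counts. The part of damaged cells in either group was not tested.

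Genes around the chain were set beside it from lists of related genes. All 5 genes of a list of subunits, a carrier and an inhibitor outside the symbol rule spanned 25%, against 52.1% of all measured genes. Of the 5, 4 (all but CYC1) were highest in set 2, against 19.2% of all measured genes. Among these 4, USMG5, a small ATP synthase subunit, had 248, 441, 303 and 296 CPM. ATPIF1, the inhibitor of ATP synthase, had 212, 307, 223 and 232 CPM, and CYCS, cytochrome c, 1096, 1189, 862 and 976 CPM. Of 36 measured assembly factors outside the rule, 18 spanned 25%, a share near the 52.1% of all measured genes, and 24 were highest in set 1, where 44.9% of all measured genes were highest. COA6 had 240.4, 219, 151 and 165 CPM and COA1 221, 198, 140.4 and 156 CPM. Both were higher in sets 1 and 2 than in sets 3 and 4, unlike the mitochondrial subunits of complex IV that such factors help to assemble.

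Of 23 measured genes for expression of the mitochondrial genome, 15 spanned 25% and 11 were highest in set 1, beside 52.1% and 44.9% of all measured genes. MTPAP, the mitochondrial poly(A) polymerase, had 7.68, 10.4, 11.2 and 12.04 CPM and was lowest in set 1. SSBP1, the single-strand binding protein of mitochondrial DNA, had 483, 548, 379 and 419 CPM. TOP1MT, the mitochondrial topoisomerase, had 32.1, 22.3, 28.4 and 25.7 CPM. Of 5 measured transcriptional regulators, 2 spanned 25%: HIF1A, which answers low oxygen, had 52.5, 40.8, 33.9 and 42.0 CPM and MYC 79.2, 51.6, 77.0 and 68.9 CPM. The 52.1% of all measured genes also stands beside the next counts. Of 17 citric acid cycle genes 5 spanned 25%, IDH2 the widest at 58.7, 66.7, 84.5 and 79.7 CPM. Of 12 chaperone and mitophagy genes 8 did, and BNIP3L, a mitophagy receptor, was the 1 gene of these lists past 2-fold, at 106, 44.0, 62.8 and 55.6 CPM. HSPE1, the small mitochondrial chaperonin, had 889, 1068, 659 and 726 CPM.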

How the data were processed

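Single-cell 3′ RNA was counted in 4 melanoma lines, 1 library each. The authors deposited UMI counts per gene and cell. The submitters' processing notes list Cell Ranger 3.0.0, Seurat 3.0 and the builds hg19 and mm10, with no role given for either build. A natural log table of the same cells was also deposited by the authors and was not used here. Genes per cell ranged from 3001 to 6999. Doublets and free RNA were not removed.

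The members and lists were chosen with earlier results of these data known. Counts were summed per barcode set and scaled to CPM. Genes that reached 10 CPM in any set were compared as log2(CPM + 1), and counted where sets differed by at least 25% or 2-fold. Intervals are exact at 95% (Poisson for levels, conditional binomial for ratios). Cells were thinned to 10000 UMIs, which left out 6, 1, 1 and 1 cells, and phases were scored with scanpy 1.11.5. The calculation was tested on simulated data. Tools were Python 3.11.15, numpy 2.4.6, scipy 1.17.1, pandas 2.3.3, matplotlib 3.10.9, and for TMM scaling R 4.3.3 with edgeR 4.0.16.

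Genes named were all mitochondrial genes, complex I core and complex II subunits, a fixed set of catalytic or core subunits, isoform groups, the 2 highest and 2 widest nuclear subunits per complex, the 5 nearest other genes per share, and the widest of each list. Others were named after their values were seen, and 1 gene that the rule names is not reported here. Of the members, 3 appear under a symbol with a numbered ending. Symbols were matched to chromosomes in GENCODE 29 and to promoters in RefSeq (GRCh38.p14), not the builds named for the files. Promoters matched 79 of 98 nuclear members.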

Additional observations from a re-analysis of the deposited data

How the results depend on the processing

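On the log2 scale, the summed mitochondrial difference of set 3 over set 1 was 0.3748. It was 0.4002 with totals without mitochondrial genes, 0.434 without mitochondrial and ribosomal protein genes, 0.4581 with TMM scaling, 0.3769 in cells of 30000 to 40000 UMIs, 0.3809 in G1 cells, 0.3519 in cells of 3% to 12% mitochondrial UMIs and 0.3974 as a median over cells. In the UMI range and in G1 the highest set was set 2 and not set 3. The nuclear difference of set 2 over set 1 was 0.1638, and 0.1856, 0.1965, 0.2335, 0.1754 (G1) and 0.1663 (median) under those settings. The difference in the mitochondrial to nuclear ratio was 0.3483, and 0.3571 in G1, 0.324 at 3% to 12% and 0.3755 as a median. These moved by more than the counting error over all cells, with the same direction. The larger counting error of a subset of cells was not computed. The shift to 0.3769 in cells of 30000 to 40000 UMIs was small and may lie within it. Nuclear members that spanned 25% were 24 in place of 40 after chromosome centring. The correlations of 0.179, 0.2233, 0.1384 and 0.0736 between both shares became 0.0515, 0.05, -0.0053 and -0.0695 with the nuclear share taken of all UMIs, which builds in an inverse relation, so that sets 3 and 4 changed sign. They were 0.2393, 0.2848 and 0.154 in sets 1, 2 and 4 outside mitochondrial and ribosomal genes, 0.1927 and 0.1244 in sets 3 and 4 at 3% to 12%, and 0.1499 and 0.0392 in sets 2 and 3 in G1 cells. The cause of the other shifts was not tested. Another 31 values stayed within counting error or 1.5 times. Leaving out mitochondrial and ribosomal genes shifted the median of all genes by 0.47, 0.50, 0.53 and 0.51, and TMM by -0.06, 0.01, 0.02 and 0.02. No paired analysis was possible because there was 1 library per line and the names carry no replicate number.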
